A study of Danio rerio with 6 samples.

Results

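Neurogenic progenitors are the dividing cells of the retina that are about to leave the cell cycle and become neurons. They were found here in single-cell RNA-seq of zebrafish eyes at 48 h post-fertilisation (hpf), when the central retina is making its last neurons and the ciliary margin at its rim keeps stem-like cells. A cell barcode was taken as a neurogenic progenitor when it held at least 1 unique molecular identifier (UMI, 1 captured mRNA molecule) of at least 2 of hes2.2, hes2.1, foxn4 and inka2, at least 1 UMI of mki67, top2a, pcna or insm1a, and UMIs of fewer than 3 of the ciliary margin genes fabp11a, ggctb, col15a1b, aldh1a2, wfdc1, cyp27c1 and cdca7a. Of 5606 barcodes with at least 1000 genes and at most 10% mitochondrial UMIs, 1208 (21.5%) met this rule and 4398 did not.

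In such cells the proneural bHLH factors drive cells towards a neuron and switch on Delta ligands, which activate Notch receptors on neighbouring cells. Notch signalling in turn switches on her genes, repressors of the proneural factors that keep the neighbour a progenitor. foxn4 is a forkhead factor of retinal progenitors that biases them towards amacrine and horizontal fates in the mouse, insm1a is a zinc finger factor of cells that are leaving the cycle, and mki67, top2a and pcna are used by dividing cells.

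The study compared the cells in which 2 human PAX6 enhancers, NRE and HS5, are active. All embryos were F1 NRE-eGFP/HS5-mCherry zebrafish, raised in PTU from 12 hpf to block pigment, in which NRE drives eGFP and HS5 drives mCherry from a minimal gata2 promoter, so no library comes from unmodified fish. Eyes of about 100 to 150 embryos were pooled for sorting, and 3 mCherry-enriched and 3 eGFP-enriched libraries were made (n = 3 per group). By the legend of the study's sorting plots, the mCherry-enriched sample of round 1 held double-positive cells and those of rounds 2 and 3 all mCherry-positive cells, while the eGFP-enriched samples held eGFP-positive cells. By the study's methods, the eGFP samples took only cells positive for eGFP and not for mCherry. The mCherry samples took cells positive for mCherry with or without eGFP. Each value is for a pool of embryos. Between classes of barcodes, p-values measure how the difference within a library varies from library to library. Between the sorts, they measure the spread between libraries. The legend has both samples of a round collected in that round, so libraries of a round may share a pool and may not be independent. The labels do not say whether the replicate numbers are the rounds.

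The files held 14307132 to 86803928 UMIs per library. There were 168, 22 and 109 neurogenic progenitors in mCherry-enriched replicates 1, 2 and 3 and 606, 12 and 291 in eGFP-enriched replicates 1, 2 and 3, and every list of 6 values that follows is in this order. Their median UMI counts were 21190, 6854, 6126, 15513, 4807 and 9317, against 8798, 5349, 5032, 6883, 5017 and 6739 in the other barcodes. The rule asks for 2 detected markers, so deep barcodes meet it more easily: after every barcode had been thinned to 2000 UMIs, 564 of 5538 barcodes met it, 530 of them members by the unthinned rule. No barcode sequence was shared between the neurogenic progenitors of any pair of libraries, and 4 were shared among all barcodes of at least 1000 genes.

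The replicate 1 libraries stood apart. Markers of mature cell types were read in their neurogenic progenitors at about the level of the other barcodes: the summed level, in CPM (UMIs of a gene scaled to a class total of 1e+06), of 6 retinal ganglion cell (RGC) markers were 841 and 865 in the progenitors of replicate 1 but 44.7 to 170 in those of replicates 2 and 3, and 453 to 1360 in the other barcodes of the 6 libraries. The sum of 9 amacrine markers was 961 and 972 against 86.2 to 179 in the same split. At least 3 photoreceptor markers were found in 76.8% and 74.8% of the replicate 1 progenitors, in 22.7%, 23.9% and 27.8% of those of mCherry-enriched replicates 2 and 3 and eGFP-enriched replicate 3, and in 66.7% of the 12 of eGFP-enriched replicate 2. The difference between progenitors and other barcodes itself differed between replicate 1 and replicates 2 and 3 at 2216 of 10141 genes (edgeR interaction test, adjusted p below 0.05). Doublets were not removed, and the part of doublets, free RNA and depth in this split was not tested. Results are therefore given over all 6 libraries and again over the 4 libraries of replicates 2 and 3, which held 434 of the progenitors.

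The genes of the rule describe these barcodes and are given without a test. hes2.2, a hairy/enhancer-of-split type repressor, was found in 97.6% of the 1208 progenitors and foxn4 in 95.9%, and 93.5% held both, whereas hes2.1 was found in 32.2% and inka2 in 24.6%. Most members were therefore chosen by the pair hes2.2 and foxn4. mki67 was found in 93.2%, insm1a in 82.1%, top2a in 81.7% and pcna in 78.6%.

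The level of hes2.2 in the progenitors was 616, 1016, 1374, 502, 1689 and 1225 CPM, against 209, 30.4, 75.1, 191, 17.2 and 34.8 CPM in the other barcodes. foxn4 stood at 355, 511, 653, 316, 642 and 464 CPM against 142, 38.7, 45, 151, 44.0 and 28.7. For both genes the 2 replicate 1 libraries were lowest in the progenitors and highest in the other barcodes. insm1a stood at 303 to 852 CPM against 120 to 172 CPM. Free RNA, read in barcodes of at most 100 UMIs, held 194 to 591 CPM of hes2.2 and 150 to 283 CPM of insm1a, beside which a single UMI in a barcode is to be read. The 6 RGC markers were not at 0 in the progenitors of replicate 1, and up to 2 of them were at 0 in a library of replicates 2 and 3.

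At the edges of the rule, 728 members held exactly 2 of the 4 markers, 353 held 3 and 127 held all 4. Just outside it were 1015 barcodes with 1 marker, 17 with 2 or more markers but none of mki67, top2a, pcna or insm1a, and 215 with 3 or more ciliary margin genes. In eGFP-enriched replicate 3, insm1a stood at 698 CPM in members with 2 markers and at 278 CPM in the barcodes with 1 marker, and notch1a at 165 and 57.4 CPM. In eGFP-enriched replicate 1 the same pairs were closer, at 248 and 165 CPM for insm1a and 128 and 75.1 CPM for notch1a.

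Neurogenic progenitors made up 44.7%, 10.1% and 18.3% of the filtered barcodes of the mCherry-enriched libraries and 29.9%, 14.1% and 12.6% of those of the eGFP-enriched libraries. The means were 24.3% ± 18.1 (SD, n = 3) and 18.9% ± 9.57 (n = 3), a difference of 5.46 percentage points that was smaller than the spread within either sort (exact two-sided permutation test p = 0.7, where 3 against 3 libraries cannot go below 0.1). Without mCherry-enriched replicate 1 the difference turned to -4.71 points (p = 0.8, exact test). In replicates 2 and 3 the shares were 14.2% and 13.4% on average. At a fixed 2000 UMIs they were 22%, 3.72%, 11.8%, 12.1%, 9.76% and 6.84%.

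To find what else these cells express, their summed UMI counts per library were compared with those of the other barcodes of the same library, with edgeR's quasi-likelihood test over 10141 genes. The 15 genes of the rule were left out of the counts. Of all genes, 636 were higher in the progenitors (6.27%) and 501 lower (4.94%) at an adjusted p below 0.05, and 1138 (16.4%) and 1377 (19.8%) of 6941 in replicates 2 and 3 alone. The median log2 fold change over all genes was -0.07, and -0.18 when counts were scaled by DESeq2's size factors, which gave 534 higher and 664 lower genes. Other barcodes are a mixture of retinal neurons, glia, ciliary margin cells, blood and pigment cells, so fewer cells of a type and less RNA per cell cannot be told apart in the sums.

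Most Notch receptors and Delta ligands were higher in the progenitors. Of the 4 Notch receptors tested, notch1a, notch1b and notch3 were higher and notch2 was lower, with a median log2 fold change over the 4 of 1.24 (1.71 in replicates 2 and 3, again with 3 higher and 1 lower). notch1a stood at 223, 222, 303, 159, 288 and 209 CPM in the progenitors and at 136, 28.8, 64.9, 114, 26.8 and 33.1 CPM in the other barcodes. Every progenitor value was above every value of the other barcodes, and the contrast was widest outside replicate 1. The log2 fold change was 2.06 (SE 0.37, edgeR adjusted p = 0.0049), and 2.86 in replicates 2 and 3. notch2 had the opposite pattern, with 0.379, 0, 0, 0.789, 0 and 2.11 CPM in the progenitors and 6.50 to 40.2 CPM in the others (log2 fold change -3.46, adjusted p = 0.000467). The others hold the ciliary margin barcodes that the rule keeps out of the progenitors, and these held more notch2, as given further on. The notch2 difference is thus in part what the rule selected, and how far was not tested. notch1b rose by 1.5 and notch3 by 0.97 on the log2 scale (2.14 and 1.27 in replicates 2 and 3). The call of notch1b was lost without mCherry-enriched replicate 2 (adjusted p = 0.0671), mCherry-enriched replicate 3 (0.0521), eGFP-enriched replicate 2 (0.0569) or eGFP-enriched replicate 3 (0.0978).

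Delta ligands rose with their receptors. Of 7 ligand genes tested, dla, dlb, dlc, dld and dll4 were higher and jag1b, a Jagged ligand, was lower, with a median of 1.46 (2.19 in replicates 2 and 3). dla stood at 213, 357, 476, 176, 602 and 375 CPM in the progenitors and at 149, 21.2, 120, 141, 28.7 and 65.8 CPM in the others. The 2 sets did not overlap, although the lowest progenitor library (176 CPM) was close to the highest of the others (149 CPM), both from replicate 1. The log2 fold change of dla was 2.24 (SE 0.48, adjusted p = 0.0127) over the 6 libraries and 3.08 in replicates 2 and 3, and the call was lost without eGFP-enriched replicate 2 (adjusted p = 0.0583) or 3 (0.0541). dlc rose by 2.18 on the log2 scale (SE 0.54, adjusted p = 0.0237), from 45.8, 4.55, 16.6, 47.5, 13.4 and 14.9 CPM in the others to 75.9, 111, 150, 65.2, 13.1 and 115 CPM. It was higher in 5 of 6 libraries, and the exception was eGFP-enriched replicate 2 with its 12 progenitors. Its call was lost without any of mCherry-enriched replicates 2 and 3 and eGFP-enriched replicates 2 and 3 (adjusted p 0.0527 to 0.109). dlb, dld and dll4 rose by 1.5, 1.46 and 0.84, but only dlb kept its call without each library in turn, since dld lost it without 4 libraries (adjusted p 0.0783 to 0.211) and dll4 without 5 (0.0659 to 0.19), eGFP-enriched replicate 3 giving the highest p for both. jag1b stood at 0 to 6.16 CPM in the progenitors and 7.59 to 30.6 CPM in the others (log2 fold change -2.0, adjusted p = 0.00327). Ciliary margin barcodes also held more jag1b than the progenitors, so the limit given for notch2 applies to it.

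The her and hey genes, targets of Notch, moved less. Of 13 tested, her15.1, her15.2 and her13 rose and none fell, with a median of 0.75, and 8 rose and 2 fell in replicates 2 and 3. her15.1 stood at 171, 209, 197, 108, 340 and 186 CPM against 151, 90.3, 82.5, 95.6, 30.6 and 75 CPM, a log2 fold change of 1.22 (adjusted p = 0.0264) and of 1.74 in replicates 2 and 3. her15.1 and her15.2 are near-identical copies, and reads may be split between them. The call of her15.1 was lost without mCherry-enriched replicate 2 or 3 or eGFP-enriched replicate 2 or 3 (adjusted p 0.056 to 0.109). her4.1 had a log2 fold change of 0.96 (adjusted p = 0.0646) over 6 libraries and 1.28 in replicates 2 and 3 (0.00331). her6, a Hes1-type repressor, went the other way, at 13.1 to 68.2 CPM against 58.0 to 147 CPM (log2 fold change -1.03, adjusted p = 0.0557), and it was called lower in replicates 2 and 3 (-0.95, adjusted p = 0.0223). Ciliary margin barcodes held more her6 too, so the limit given for notch2 also applies here.

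Of 12 modulators of the pathway, 5 rose and none fell (median 0.49). hes6, which opposes the her repressors and promotes neurogenesis, was the most abundant of them, at 655, 893, 1067, 605, 930 and 997 CPM in the progenitors against 335, 225, 282, 337, 153 and 202 CPM in the others. Its levels did not overlap and differed by 1.84 on the log2 scale (SE 0.24, adjusted p = 0.00121), by 2.33 in replicates 2 and 3. The others were mib1, the ubiquitin ligase that lets Delta signal (1.03), rbpjb, the DNA-binding partner of activated Notch (1.04), lfng, a glycosyltransferase of the receptors (0.84), and nrarpb, a feedback inhibitor (0.78). These 4 lost their calls without eGFP-enriched replicate 3 (adjusted p 0.0518, 0.0717, 0.16 and 0.153). lfng and nrarpb were also not called without mCherry-enriched replicate 2 (0.12 and 0.0781), rbpjb and nrarpb without mCherry-enriched replicate 3 (0.0863 and 0.0701), and rbpjb and lfng without eGFP-enriched replicate 2 (0.0579 and 0.0885). In the fit on barcodes chosen after thinning, which held 4 libraries, notch1a, dla, dlc and hes6 remained called (log2 fold changes 1.75, 1.71, 2.32 and 1.76), while 1 receptor, 2 ligands, 1 effector and 1 modulator in all were called higher.

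**Figure D1:**
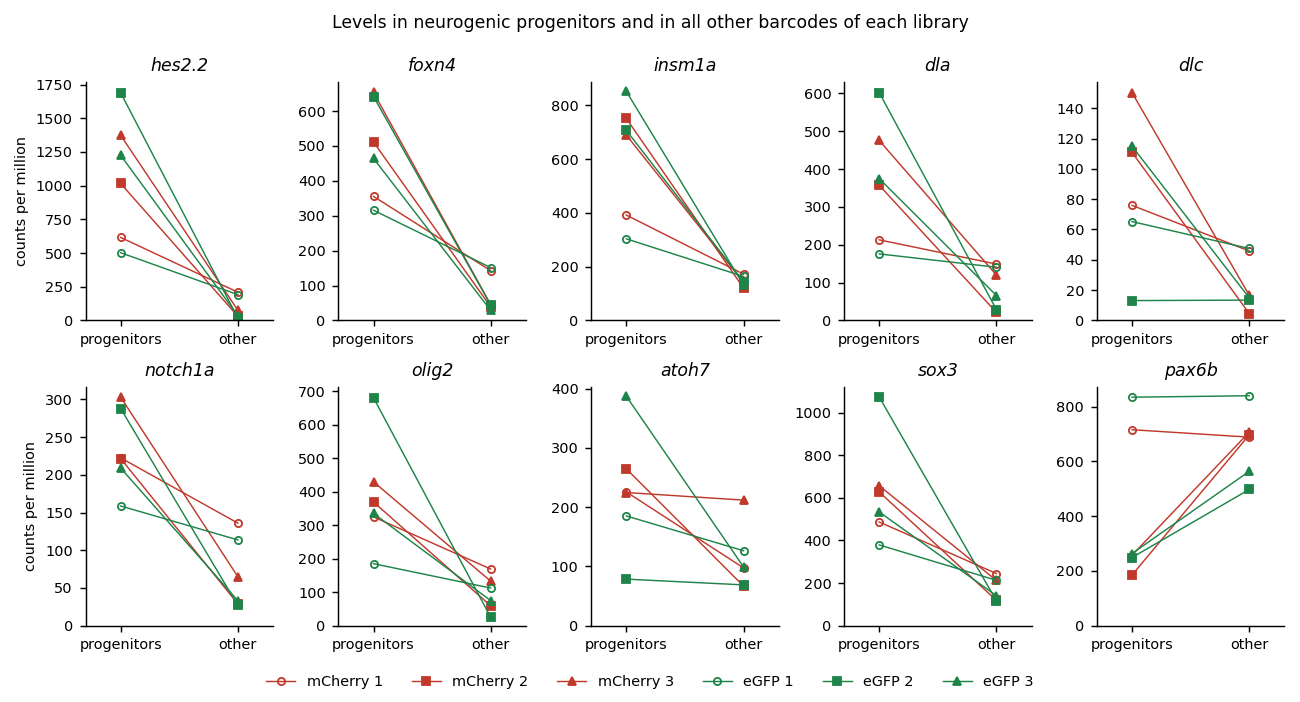
Levels in CPM of hes2.2, foxn4, insm1a, dla, dlc, notch1a, olig2, atoh7, sox3 and pax6b in neurogenic progenitors and in the other barcodes of each of the 6 libraries, joined by library. notch1a lies at 159 to 303 CPM in the progenitors and at 26.8 to 136 CPM in the others, with the smallest gaps in replicate 1.

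The proneural and neurogenic factors did not move as 1 group. Of 26 tested, 7 rose, 1 fell and 18 were not called, with a median of 0.16 beside the -0.07 of all genes, and in replicates 2 and 3 the split was 9 higher and 7 lower of 24. ascl1a, the proneural factor of early retinal progenitors, rose from 68.8, 16.7, 58.1, 52.3, 36.3 and 26.9 CPM to 101, 240, 140, 68.1, 327 and 122 CPM (log2 fold change 1.82, adjusted p = 0.013). Its highest progenitor values came from mCherry-enriched and eGFP-enriched replicate 2, the libraries with the fewest cells. The call of ascl1a was lost without eGFP-enriched replicate 2 (adjusted p = 0.0606) or 3 (0.0588), and its log2 fold change in replicates 2 and 3 was 2.52. neurog1 rose by 1.84 (2.39 in replicates 2 and 3), and its call was lost without eGFP-enriched replicate 3 (adjusted p = 0.057).

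olig2, a bHLH factor found in dividing retinal precursors, stood at 325, 370, 430, 185, 681 and 335 CPM against 169, 59.2, 133, 112, 24.9 and 74.8 CPM. The levels did not overlap, and the log2 fold change was 2.09 (SE 0.37, adjusted p = 0.0043), or 2.67 in replicates 2 and 3. atoh7, the factor required for RGCs, stood at 226, 265, 225, 185, 78.6 and 387 CPM against 97.5, 66.8, 212, 126, 68.9 and 99.1 CPM. It was higher in every library, but the 2 sets overlapped, since mCherry-enriched replicate 3 held nearly as much in its other barcodes (212 CPM) as in its progenitors (225 CPM). Its log2 fold change was 1.17 (SE 0.29, adjusted p = 0.025), 1.41 in replicates 2 and 3, and the call was lost without mCherry-enriched replicate 1 (adjusted p = 0.0505) or 2 (0.0903) or eGFP-enriched replicate 3 (0.08).

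neurod4 (1.03), sox11a (0.99) and sox11b (0.76) completed the 7 that rose, and sox4b fell by 0.75 (adjusted p 0.0548 to 0.162 without any 1 library but eGFP-enriched replicate 1). neurod1, a factor of differentiating photoreceptors and amacrine cells, stood at 191 to 580 CPM in the progenitors and 316 to 673 CPM in the others, with no call (log2 fold change -0.16, adjusted p = 0.723). ptf1a, which directs amacrine and horizontal fates, was low in both, at 4.97 to 17.5 CPM against 5.74 to 27.3 CPM (log2 fold change 0.13, adjusted p = 0.8). onecut1, a horizontal and RGC factor, had a log2 fold change of 0.67 (adjusted p = 0.138) over 6 libraries and 1.00 (0.0114) in replicates 2 and 3.

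**Figure D2:**
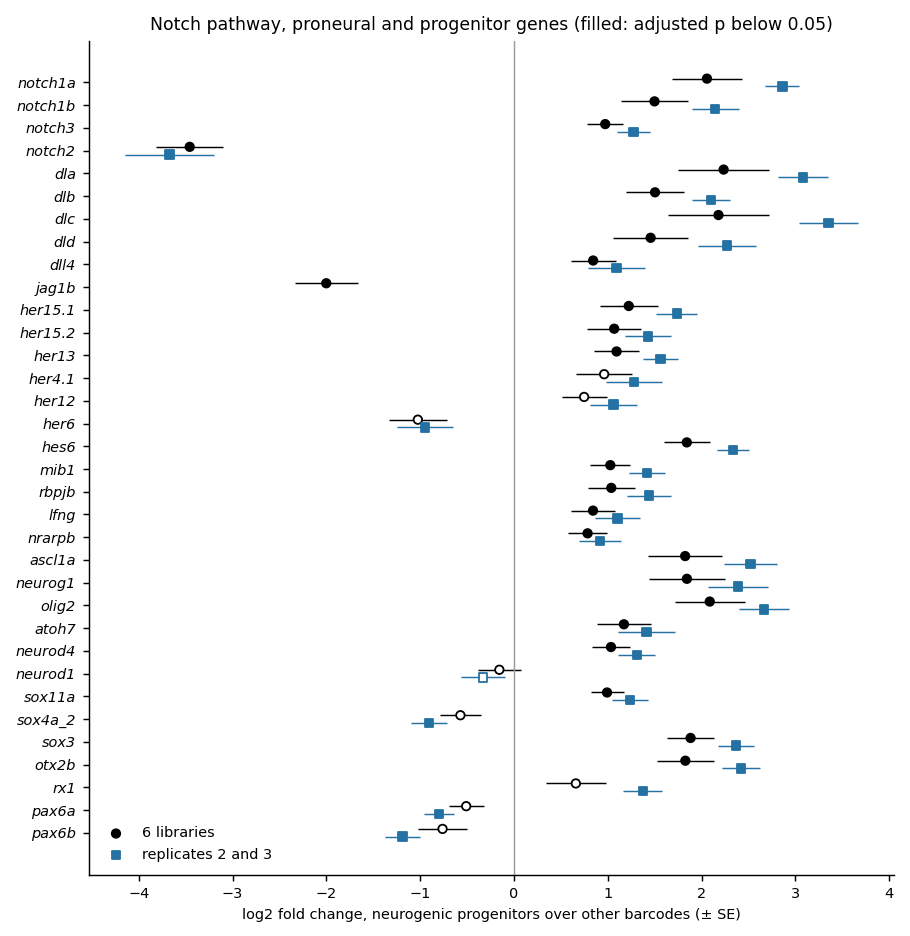
Log2 fold change (± SE) of Notch pathway, proneural and transcription factor genes in neurogenic progenitors against other barcodes, over 6 libraries (black) and over replicates 2 and 3 (blue), with filled points where the edgeR adjusted p is below 0.05. notch1a (2.06 and 2.86), dla (2.24 and 3.08) and hes6 (1.84 and 2.33) are higher and notch2 (-3.46 and -3.67) lower in both sets.

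Of 28 transcription factors of retinal progenitors, 4 rose and 1 fell over 6 libraries, and 8 rose and 11 fell of 26 in replicates 2 and 3. sox3, a SoxB1 factor, stood at 487, 628, 657, 379, 1074 and 534 CPM in the progenitors against 245, 118, 212, 213, 117 and 141 CPM in the others, with no overlap (log2 fold change 1.88, SE 0.25, adjusted p = 0.00134, and 2.37 in replicates 2 and 3). otx2b, needed for photoreceptors and bipolar cells, rose by 1.83 (2.42), sox9b by 1.17 and the chromatin protein gene hmga1a by 0.88, of which sox9b was not called once mCherry-enriched replicate 2 or 3 or eGFP-enriched replicate 3 was left out (adjusted p 0.0903, 0.0727 and 0.15). rx1, an eye field factor, stood at 42.8 to 111 CPM against 28.2 to 60.7 CPM and was not called over 6 libraries (log2 fold change 0.66, adjusted p = 0.212). It was called higher in replicates 2 and 3 (1.37, adjusted p = 8.89e-05) and lower in replicate 1 alone (-0.40).

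pax6b, the zebrafish co-orthologue of the gene whose enhancers drive the reporters, was not called over 6 libraries (log2 fold change -0.76, adjusted p = 0.0854). It stood at 715, 185, 257, 834, 249 and 263 CPM in the progenitors and at 688, 697, 707, 839, 497 and 564 CPM in the others. In replicates 2 and 3 all 4 progenitor values were below all 4 of the others (log2 fold change -1.19, adjusted p = 0.000145), whereas in replicate 1 the classes had nearly equal levels. pax6a gave -0.51 (adjusted p = 0.11) and -0.80 (0.00123) in the same 2 sets.

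Among 23 fate factors, 2 rose and 2 fell (median -0.63), and 3 rose and 14 fell of 21 in replicates 2 and 3. Those that rose were prdm1b (0.96) and vsx1, a bipolar factor that was abundant in both classes (841 to 1966 CPM against 803 to 1531 CPM, log2 fold change 0.46, adjusted p = 0.0391). The call of vsx1 was lost without any of mCherry-enriched replicates 1 to 3 or eGFP-enriched replicate 3 (adjusted p 0.0817 to 0.149). isl1, of RGCs and other neurons, fell by 1.1, and tfap2b, of amacrine cells, by 1.47, and both calls were lost without any 1 library of replicates 2 and 3 (adjusted p 0.116 to 0.166). The photoreceptor factor crx stood at 338 to 709 CPM against 337 to 658 CPM, with no call (-0.02, adjusted p = 0.972).

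Mitosis and histone genes were higher in the progenitors nearly throughout. The rule itself asked for a division gene or insm1a, so this is in part what it selected, and the counts are a description. Of 49 mitosis genes, 48 rose and none fell (median 1.68), 48 of 48 rose in replicates 2 and 3 (median 2.24), and 42 of 49 after thinning. cdc25b, the phosphatase that starts mitosis, stood at 140, 246, 261, 92.5, 367 and 198 CPM against 67.1, 25.8, 39.9, 53.6, 24.9 and 33.5 CPM (log2 fold change 2.35). plk1, a mitotic kinase, stood at 173, 406, 278, 125, 393 and 284 CPM against 37.9 to 78.1 CPM (log2 fold change 2.18). Neither gene's levels overlapped. The helicase gene pif1 had the largest rise among the genes named by size, 2.61 on the log2 scale, from a mean of 12.1 to 82.6 CPM, and aspm, a spindle pole gene, rose by 2.14. Of 44 replication-dependent histone genes, which are used in S phase, 43 rose and 1 fell (median 1.90), but many are near-identical copies whose reads cannot be told apart.

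Of 48 DNA replication genes, 3 rose and none fell over 6 libraries (median 0.46), and 31 of 47 rose in replicates 2 and 3 (median 0.93). As a share of all UMIs, the mitosis genes took 2.25% ± 0.482 (SD over 6 libraries) in the progenitors and 0.937% ± 0.162 in the other barcodes, higher in 6 of 6 libraries. The DNA replication genes took 0.466% ± 0.133 and 0.319% ± 0.0582, higher in 5 of 6. Glia barcodes, described further on, took 0.976% ± 0.134 for mitosis genes. Their rule, like that of the other barcodes, asked for no division gene, so these shares are given without a test. Dividing photoreceptor barcodes, whose rule did ask for one, had a mitosis share of 1.40% ± 0.294, lower than the progenitors in 6 of 6 libraries (exact sign-flip permutation test p = 0.0313, the smallest it can give). The mitosis share was 1.21% in ciliary margin barcodes against 2.02% in the progenitors of the same 4 libraries (4 of 4, p = 0.125, the smallest 4 libraries allow in this exact test).

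**Figure D3:**
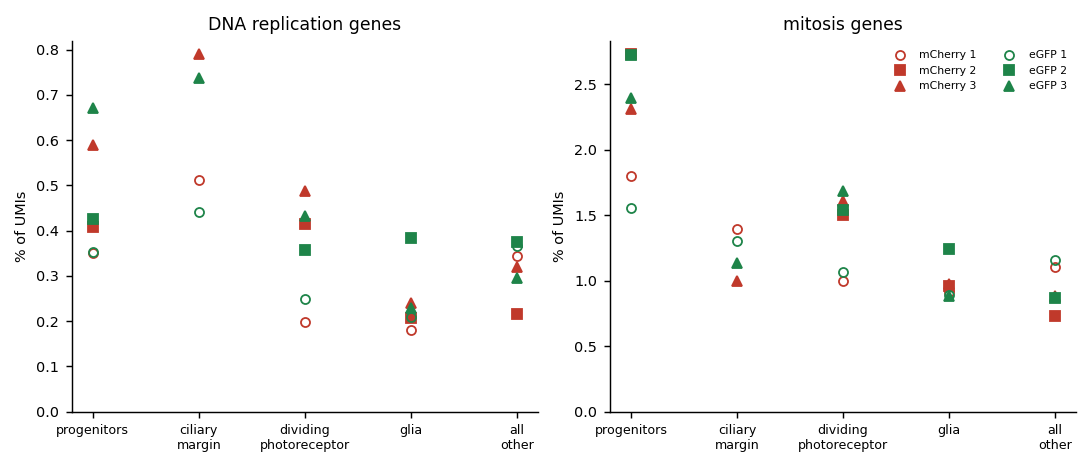
Percent of UMIs from DNA replication genes and from mitosis genes in neurogenic progenitors, other, ciliary margin, dividing photoreceptor and glia barcodes, with 1 point per library. Mitosis genes take the largest share in the progenitors (mean 2.25%), and DNA replication genes take more in ciliary margin barcodes (0.620%) than in the progenitors of the same 4 libraries (0.491%).

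Genes of cell cycle exit and other cell cycle regulators, listed together and with cyclins among them, were mixed. Of 18, 6 rose, 1 fell and 11 were not called (median 0.09). gadd45gb.1, a growth arrest gene of newly forming neurons, stood at 656, 973, 627, 280, 1100 and 556 CPM against 416, 170, 248, 213, 70.8 and 161 CPM. The sets overlapped through replicate 1, whose other barcodes held 416 CPM, but the gene was higher in 6 of 6 libraries (log2 fold change 1.79, adjusted p = 0.00718, and 2.41 in replicates 2 and 3). gadd45ga rose by 0.95, cdkn3 by 1.35 and cdkn2c, a CDK inhibitor gene, by 1.32, the last with its call lost without any 1 library but eGFP-enriched replicate 1 (adjusted p 0.0665 to 0.271). ccnd1, the G1 cyclin, rose by 0.90 (adjusted p = 0.0486) and was level in replicate 1 alone (-0.012), and its call was lost without mCherry-enriched replicate 2 or 3 or eGFP-enriched replicate 2 or 3 (adjusted p 0.121 to 0.18). ccnd2a fell by 2.33.

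Ribosome biogenesis ran lower in the progenitors than in the mixture of other cells. That mixture holds the ciliary margin barcodes which the rule keeps out of the progenitors, and these had higher levels of such genes, as given further on. The difference is thus in part what the rule selected. Of 29 genes, 16 fell and 1 rose (median -0.86, and -0.83 in replicates 2 and 3). npm1a, a nucleolar chaperone, stood at 51.1, 6.16, 24.8, 88.0, 52.4 and 38.0 CPM in the progenitors and at 190, 183, 205, 237, 314 and 258 CPM in the others. The sets were far apart in every library (log2 fold change -2.26, SE 0.28, adjusted p = 0.000956), and fbl, the methyltransferase of ribosomal RNA, fell by 1.07. With barcodes chosen after thinning, none of the 29 was called, and the log2 fold change of npm1a was -1.75 (adjusted p = 0.147).

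Few genes of maturing neurons were called over 6 libraries, and most fell in replicates 2 and 3. Of 36, 5 fell and 1 rose (median -1.31), while 31 fell and 1 rose in replicates 2 and 3 (median -2.58). elavl3, an RNA-binding protein of newborn neurons, shows the split between replicates, at 817, 61.6, 88.2, 879, 78.6 and 91.4 CPM in the progenitors and 956, 977, 1287, 935, 599 and 879 CPM in the others. In replicate 1 the progenitors held nearly as much as the other barcodes, and in the other 4 libraries they held far less. The log2 fold change was -2.17 (SE 0.56, adjusted p = 0.0291) and -3.34 in replicates 2 and 3, and the call was lost without mCherry-enriched replicate 2 (adjusted p = 0.0963) or 3 (0.0782) or eGFP-enriched replicate 2 (0.111) or 3 (0.0959).

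Markers of the other cell types of the eye were mostly not called over 6 libraries. None of 6 RGC markers was called over 6 libraries (median -1.96) and all 6 fell in replicates 2 and 3 (median -3.57), and of the amacrine markers 1 of 9 fell over 6 libraries and 7 of 8 in replicates 2 and 3. None of 8 horizontal cell markers was called (median 0.20), and 2 rose and 1 fell of 5 in replicates 2 and 3. Their summed level was 222 to 416 CPM in the progenitors and 99.5 to 341 CPM in the others. Of 8 photoreceptor markers 1 rose and none fell (median -0.57), and of 8 bipolar markers 1 rose and 1 fell (median -0.73), while in replicates 2 and 3 1 rose and 6 fell of 8 in each list. The summed levels of both lists overlapped between the classes, at 721 to 2077 CPM against 821 to 2214 CPM and at 1140 to 3602 CPM against 2149 to 3458 CPM. Of 6 lens markers 3 fell and none rose (median -2.06). All 9 red blood cell markers and all 4 pigment cell markers tested fell, as did 4 of 5 mesenchyme markers. Glia markers did not follow the neuronal ones. Of 9, 3 rose and none fell: fabp7a, a lipid carrier of radial glia and progenitors, at 5214 to 7450 CPM against 3774 to 5137 CPM (log2 fold change 0.66, adjusted p = 0.0125), crabp1a by 1.00 and cldn5b by 0.72. fabp7a lost its call without mCherry-enriched replicate 2 (adjusted p = 0.0593), and crabp1a and cldn5b without eGFP-enriched replicate 3 (0.0614 and 0.0674). The summed level of the 9 glia markers, most of it fabp7a, was 5801 to 8680 CPM in the progenitors and 4330 to 5748 CPM in the others. The longer list of Muller glia genes, which holds these 9, was split: of 13 tested 3 rose, the 3 just named, and 3 fell, glula by 1.63, cahz by 2.06 and slc1a3a by 1.13 (median -0.77). Its summed level, again mostly fabp7a, was 5825 to 8693 CPM in the progenitors against 4455 to 5849 CPM. id2a, an inhibitor of bHLH factors, fell by 1.57, a call lost without mCherry-enriched replicate 2 (adjusted p = 0.0564) or eGFP-enriched replicate 2 (0.0692) or 3 (0.0676), and bmp4, a dorsal signal, stood at 0 to 0.986 CPM against 3.92 to 17.2 CPM. bmp4 was also lower in the progenitors than in the ciliary margin barcodes, which the rule leaves among the others.

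The NRE reporter itself was lower in the progenitors than in the other barcodes. The rule keeps ciliary margin barcodes out of the progenitors and among the others, and they held more eGFP than the progenitors, as given further on. The difference is therefore in part what the rule selected, and how far was not tested. eGFP transcripts stood at 26.5, 6.16, 23.6, 10.8, 13.1 and 20.2 CPM in the progenitors and at 42.1, 6.83, 56.5, 20.2, 13.4 and 50.4 CPM in the others, from 140, 1, 19, 164, 1 and 67 UMIs and 150, 9, 167, 571, 7 and 864 UMIs. The level was lower within each of the 4 libraries of replicates 1 and 3, the sets overlapped between libraries, and the replicate 2 libraries held 1 UMI each, too few to give a direction. The log2 fold change was -0.79 (SE 0.17, adjusted p = 0.0143), -0.97 in replicates 2 and 3, and the call was lost without mCherry-enriched replicate 3 (adjusted p = 0.057) or eGFP-enriched replicate 3 (0.0528). The levels are of transcript, not of fluorescence, and few UMIs of the reporter were read. The HS5 reporter, mCherry, is given with the sorts further on.

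The calls of single genes leaned on the replicates other than 1. Of 166 list and reporter genes called over 6 libraries, 57 lost the call without eGFP-enriched replicate 3, 41 without mCherry-enriched replicate 3, 37 without mCherry-enriched replicate 2, 30 without eGFP-enriched replicate 2, 14 without mCherry-enriched replicate 1 and 1 without eGFP-enriched replicate 1, none with a change of sign. All 157 of them that could be tested in replicates 2 and 3 alone kept their call and direction there. When the barcodes were chosen after thinning, 83 of 164 kept their call and direction in the 4 libraries left and no sign changed.

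Ciliary margin barcodes are the nearest comparison, since they too divide. They were taken as barcodes with 3 or more of the 7 ciliary margin genes and a division gene or insm1a, and 402 were found, of which 4 libraries held at least 10 (mCherry-enriched replicates 1 and 3 and eGFP-enriched replicates 1 and 3, the order of values here). Their median UMI counts were 43660, 12737, 47929 and 14105, above those of the progenitors. The class was not barred from holding neurogenic markers. Of its barcodes, 21 of 29, 5 of 27, 169 of 229 and 19 of 107 also held 2 or more of the 4 markers of the progenitor rule. In replicate 1 most of the class thus met that part of the rule, and how far this narrowed the differences was not tested. Of 9453 genes, 26 were higher in the progenitors (0.275%) and 461 lower (4.88%), 5.15% in all, and in mCherry-enriched and eGFP-enriched replicate 3 alone, 1544 (20.8%) and 1911 (25.8%) of 7411. With 2 libraries per class, the smaller set has 1 residual degree of freedom and leans on the spread that edgeR pools over genes.

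Ribosome biogenesis genes were lower in the progenitors. Of 29 ribosome biogenesis genes, 23 fell and none rose (median -1.79, and 27 fell in replicate 3). npm1a stood at 51.1, 24.8, 88.0 and 38.0 CPM in the progenitors and at 295, 923, 283 and 861 CPM in ciliary margin barcodes, with no overlap. The log2 fold change was -3.33 (SE 0.58, adjusted p = 0.0281) and -4.66 in replicate 3, and the call was lost without mCherry-enriched replicate 1 (adjusted p = 0.0903) or 3 (0.0763) or eGFP-enriched replicate 3 (0.13). fbl fell by 2.18 and ncl, nucleolin, by 1.79. With barcodes chosen after thinning, 27 of the 29 fell in the 2 libraries left (npm1a by 4.39). DNA replication genes pointed the same way, with 12 of 48 lower and none higher, among them the helicase genes mcm2 (-1.24) and mcm5 (-1.26).

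All 6 pigment genes tested fell, such as tyrp1b, an enzyme of melanin synthesis, at a mean of 12.4 CPM in the progenitors and 1476 CPM in ciliary margin barcodes (log2 fold change -6.64, adjusted p = 0.0167). Pigment cells lie beside the ciliary margin, and how far their RNA or doublets with them set these levels was not tested. Some Notch pathway and eye field genes were also lower in the progenitors, with notch2 at -3.55, jag1b at -2.85, her6 at -1.64, otx2a at -3.50 and rx2 at -1.17. eGFP stood at 26.5, 23.6, 10.8 and 20.2 CPM in the progenitors and at 65.6, 187, 23.1 and 154 CPM in ciliary margin barcodes (log2 fold change -1.94, adjusted p = 0.0307), lower in 4 of 4 libraries. Its call was lost without mCherry-enriched replicate 1 (adjusted p = 0.0903) or 3 (0.0916) or eGFP-enriched replicate 3 (0.121).

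Genes higher in the progenitors were few over 4 libraries and many in replicate 3. pif1 (1.72), fabp7a (0.43) and 3 histone genes were among those that rose over the 4. So were 3 of 7 red blood cell markers, among them hbae1.3_1, a haemoglobin gene, at 23.5, 160, 9.46 and 0.302 CPM against 12.3, 43.7, 3.26 and 0 CPM (log2 fold change 1.51, adjusted p = 0.0279). The free RNA of these libraries held 2233, 5837, 360 and 25.5 CPM of hbae1.3_1, and its part in the difference was not tested. None of the 24 neurogenic factors was called, with a median of 1.33, while 20 of 23 rose and 1 fell in replicate 3 (median 2.73). sox3 stood at 487, 657, 379 and 534 CPM in the progenitors and at 260, 21.9, 216 and 57.3 CPM in ciliary margin barcodes, higher in 4 of 4 libraries without overlap. Its log2 fold change was 2.28 (SE 0.70, adjusted p = 0.102) and 3.73 in replicate 3. neurod4 stood at 868, 1044, 678 and 822 CPM against 510, 26.7, 503 and 109 CPM, with 2.14 (adjusted p = 0.143) and 3.63. In both genes the 2 replicate 1 libraries had the high ciliary margin values, and in these libraries most ciliary margin barcodes also held 2 or more neurogenic markers. atoh7 had 1.75 (adjusted p = 0.062) and 2.73, and dla 1.03 (0.17) and 1.91. Of the 71 list and reporter genes called here, 67 lost the call without mCherry-enriched replicate 1, 68 without mCherry-enriched replicate 3, 67 without eGFP-enriched replicate 3 and 4 without eGFP-enriched replicate 1, with no change of sign, and 70 kept call and direction in replicate 3 alone.

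Dividing photoreceptor barcodes share the division genes by their rule. They were barcodes outside the progenitors with fewer than 3 ciliary margin genes, 3 or more of the photoreceptor markers six7, prdm1b, gngt2a, tulp1a, pde6gb, crx, otx5 and rcvrn2, and a UMI of mki67, top2a or pcna, and 1072 were found in the 6 libraries. The photoreceptor part of this rule is loose: 27.4% to 56.3% of the other barcodes and 22.7% to 76.8% of the progenitors held 3 or more photoreceptor markers. Of the dividing photoreceptor barcodes, 38.5% to 76.7% also held 3 or more glia markers, and 1.03% to 30.8% 3 or more RGC markers. The class is thus a mixture and not photoreceptor precursors alone. Of 5909 genes, 715 were higher in the neurogenic progenitors (12.1%) and 694 lower (11.7%), and 1340 of 4117 (32.5%) were called in replicates 2 and 3, 715 higher and 625 lower.

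The Notch pathway and the mitosis genes were again higher. All 3 receptors tested rose, 4 of 6 ligands rose and 1 fell, 8 of 12 her and hey genes rose, and 6 of 8 modulators rose. Without eGFP-enriched replicate 3, her6, her12, her13, her15.1, her15.2, her4.4, lfng, nrarpa, nrarpb and rbpjb were not called (adjusted p 0.0514 to 0.233). Of 192 list and named genes called here, 48 lost the call without that library and 40 without mCherry-enriched replicate 3, with no change of sign. notch1a stood at 159 to 303 CPM in the progenitors and at 105, 36.4, 62.5, 60.7, 29.0 and 40.2 CPM in dividing photoreceptor barcodes (log2 fold change 2.0, SE 0.23, adjusted p = 7.46e-05), and dla rose by 2.09 (adjusted p = 0.00062). Neither gene overlapped between the classes. All 48 mitosis genes rose (median 1.25), although both classes had to hold a division gene or, for the progenitors, insm1a. cdc25b stood at 92.5 to 367 CPM against 27.7, 58.3, 48.9, 39.2, 43.4 and 52.8 CPM (log2 fold change 2.1, adjusted p = 1.75e-05), the largest rise of the genes named by size.

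Of 23 neurogenic factors 7 were higher and 6 lower in the progenitors (median 0.20), and of 17 fate factors outside the rules none was higher and 9 were lower (median -0.94). The dividing photoreceptor barcodes were chosen by photoreceptor markers, so lower photoreceptor genes are in part what the rule selected. atoh7 (1.66), ascl1a (1.81), sox3 (1.61), olig2 (1.15), hes6 (1.59) and dlc (2.44) were higher in the progenitors. The photoreceptor factors neurod1, nr2e3, prdm1a and thrb were lower, nr2e3 by 2.13, prdm1a by 2.05 and thrb, the thyroid hormone receptor of red cones, by 1.41. neurod1 stood at 536, 191, 580, 572, 419 and 373 CPM in the progenitors and at 814, 1314, 1784, 868, 709 and 1770 CPM in dividing photoreceptor barcodes (log2 fold change -1.27, SE 0.22, adjusted p = 0.00169). The 2 sets did not overlap, and the gap was widest in mCherry-enriched replicates 2 and 3 and eGFP-enriched replicate 3. neurod4 was level between them (0.15, adjusted p = 0.243). rcvrna, a phototransduction gene outside the rule, fell by 2.33. When both classes were chosen after thinning, 4 libraries remained, and of the 192 list and named genes called over 6 libraries 12 kept the call and direction, 180 lost the call and 14 changed sign, RGC markers and neuron maturation genes among them. cdc25b (1.66) and prdm1a (-2.98) kept the call, and notch1a (1.84, adjusted p = 0.081), dla (2.03, 0.0596) and neurod1 (-1.34, 0.0583) did not. thrb was not called once eGFP-enriched replicate 3 was left out (adjusted p = 0.0531).

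Glia barcodes, 1689 with 3 or more of 9 glia markers and the same exclusions, gave 954 higher (13.2%) and 837 lower (11.6%) genes of 7230, and 885 (17%) and 1054 (20.2%) of 5207 in replicates 2 and 3. Their rule is loose, since 32.9% to 65.4% of the other barcodes and 52.9% to 80.4% of the progenitors held 3 or more glia markers. Of the glia barcodes, 32.6% to 58.9% also held 3 or more photoreceptor markers, so the class is a mixture and not glia alone. dlc stood at 75.9, 111, 150, 65.2, 13.1 and 115 CPM in the progenitors and at 16.3, 10.2, 18.6, 23.1, 8.62 and 12.7 CPM in glia barcodes (log2 fold change 2.66, SE 0.30, adjusted p = 0.000131). It was higher in every library but eGFP-enriched replicate 2, whose 12 progenitors and 22 glia barcodes held too few UMIs of it to give a direction. notch1a rose by 1.99, dla by 2.0, hes6 by 1.47 and atoh7 by 1.18. Only 1 of 13 her and hey genes was called, against 4 of 6 ligands and 2 of 3 receptors. All 48 mitosis genes and 41 of 46 DNA replication genes rose (medians 1.99 and 1.04), in part what the rule selected, and 31 of 36 neuron maturation genes fell. The largest falls were in collagens such as col2a1a (-2.56). Of 220 list and named genes called here, 53 lost the call without mCherry-enriched replicate 3 and 51 without eGFP-enriched replicate 3, with no change of sign. With barcodes chosen after thinning, 4 libraries remained. There 216 of the 220 could be tested, 19 kept the call and direction and 197 lost the call. notch1a (1.05), dla (0.82), dlc (2.19) and hes6 (1.08) remained called, while atoh7 (1.81, adjusted p = 0.0947) did not. Of the 220 genes, 6 changed sign, among them notch1b (1.03 and -0.34 after thinning) and olig2 (1.06 and -0.01).

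The progenitors themselves were split by insm1a, in those that held a division gene. mCherry-enriched replicates 1 and 3 and eGFP-enriched replicates 1 and 3, the order used here, held 150, 91, 487 and 220 insm1a-positive and 16, 17, 114 and 64 insm1a-negative progenitors. The positive cells were deeper in replicate 1 (median UMIs 24402 against 12868 and 17965 against 7846) and not in replicate 3 (6126 against 6439 and 9363 against 10434). Of 6225 genes, 39 were higher in the positive cells (0.627%) and 41 lower (0.659%), 1.29% in all, and 155 (3%) and 110 (2.13%) of 5169 in the 2 libraries of replicate 3, 5.13% in all.

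Of 5 ligands tested between them, dlb and dlc were higher in the insm1a-positive progenitors and none was lower, and of 24 neurogenic factors 6 rose and none fell. atoh7 had the largest rise, at 236, 242, 198 and 477 CPM in the positive cells and 0, 136, 41.7 and 7.25 CPM in the negative ones. Every positive value was above every negative one (log2 fold change 3.11, SE 0.56, adjusted p = 0.0291, and 3.73 in replicate 3). dlc stood at 77.8, 168, 67.6 and 136 CPM against 35.9, 55.9, 37.6 and 42.0 CPM, a log2 fold change of 1.3 (SE 0.21, adjusted p = 0.0222). hes6 stood at 669, 1163, 625 and 1158 CPM against 359, 527, 380 and 370 CPM (1.14, adjusted p = 0.0106), and neurod4 at 895, 1133, 696 and 962 CPM against 305, 535, 462 and 291 CPM (1.25, adjusted p = 0.0106). None of these genes overlapped between the classes. prdm1b (1.45), rbpjb (1.36), otx2b (1.26), neurod1 (0.80) and tfap2d, an AP-2 factor (2.53), also rose.

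In the insm1a-positive progenitors 2 of 3 Notch receptors, 3 of 13 her and hey genes and 2 of 4 Id genes were lower and none was higher, and of 26 transcription factors of progenitors 4 were lower and 2 higher. notch3 stood at 302, 124, 186 and 155 CPM in the positive cells and at 466, 598, 290 and 383 CPM in the negative ones, and notch1b at 75.5, 59.0, 48.8 and 55.3 CPM against 112, 199, 96.5 and 171 CPM. The sets overlapped for notch3 and not for notch1b. On the log2 scale they differed by -1.09 (adjusted p = 0.0346) and -1.18 (0.0222), whereas notch1a did not differ by the test (0.34, adjusted p = 0.261), nor did dla (0.18, adjusted p = 0.726) or ascl1a (-0.62, adjusted p = 0.0761). her6 stood at 27.9, 23.6, 27.3 and 46.8 CPM against 126, 184, 85.0 and 152 CPM (-1.91, adjusted p = 0.00386), and her4.1 (-1.06) and her12 (-1.04) fell with it. id1 stood at 411, 214, 330 and 480 CPM against 780, 1253, 616 and 1426 CPM (-1.39, adjusted p = 0.0147). In her6 and id1 the classes did not overlap. sox9b (-1.43) and the gap junction gene cx43 (-2.37) were lower too.

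**Figure D4:**
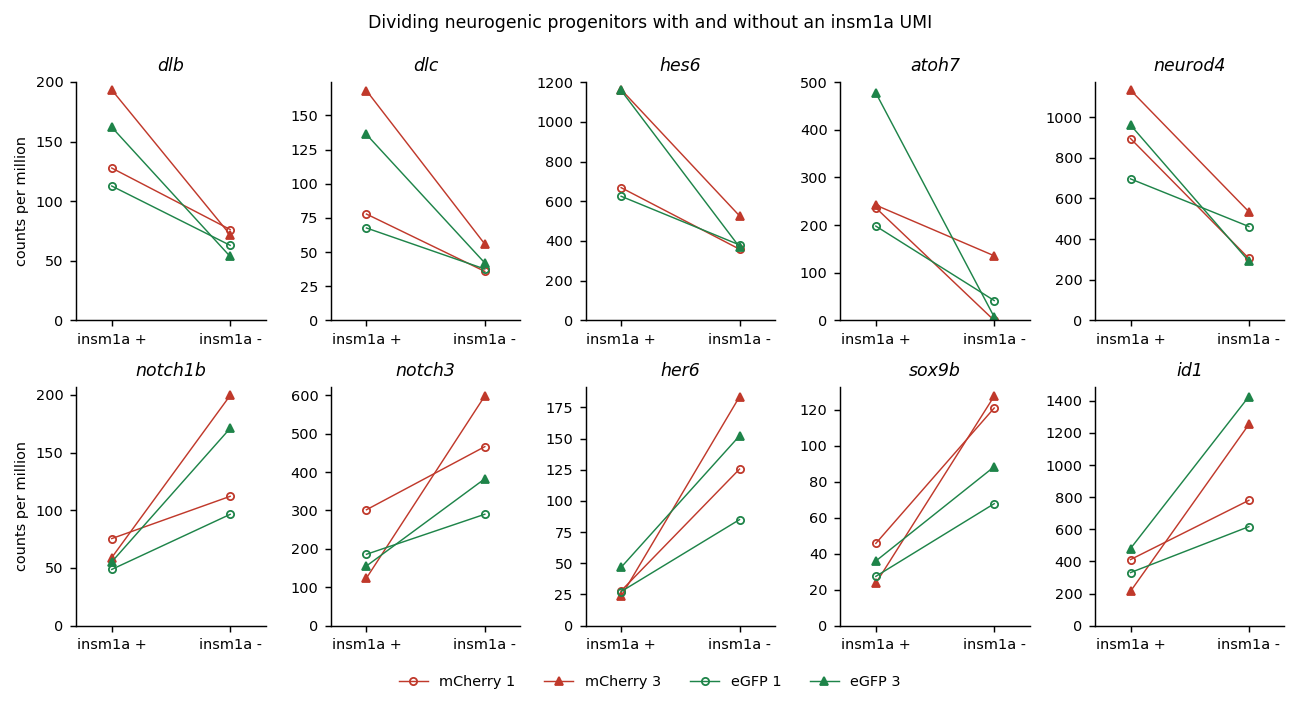
Levels in CPM of dlb, dlc, hes6, atoh7, neurod4, notch1b, notch3, her6, sox9b and id1 in insm1a-positive and insm1a-negative dividing neurogenic progenitors of 4 libraries, joined by library. atoh7 lies at 198 to 477 CPM in the positive cells and at 0 to 136 CPM in the negative cells, and id1 at 214 to 480 CPM against 616 to 1426 CPM.

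The cycle genes did not separate these classes over 4 libraries: none of 47 DNA replication genes and none of 48 mitosis genes was called by edgeR, with medians of -0.35 and 0.10, while ccnd1 fell by 0.68. The split rests on few libraries. Leaving out mCherry-enriched replicate 1, mCherry-enriched replicate 3 or eGFP-enriched replicate 3 left 2, 2 and 4 called genes in all (42, 40 and 39 of the 42 list and named genes lost their calls), and the adjusted p of atoh7 was then 0.196, 0.0922 and 0.0833, of hes6 0.087 and 0.0908 without the first and the second, and of id1 0.087 and 0.0703 without the first and the last. her6 remained called without mCherry-enriched replicate 3 or eGFP-enriched replicate 3 but not without mCherry-enriched replicate 1 (adjusted p = 0.0765). After thinning, 41 of the 42 genes could be tested, of which 19 kept the call and direction and 22 lost the call. hes6 (0.80), atoh7 (1.78), dlc (0.66), dlb (0.47), notch3 (-0.85) and id1 (-0.99) remained called with smaller changes, and notch1b (-0.49, adjusted p = 0.337) and her6 (-0.78, adjusted p = 0.137) did not. pde6gb (-1.70), rem1 (-1.64) and vsx1 (0.54) changed sign after thinning (0.63, 0.23 and -0.08).

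How many progenitors carry each factor was counted after thinning to 2000 UMIs, in replicates 2 and 3, where 433 progenitors were deep enough, 1 too shallow. RGC-marker barcodes, non-member barcodes with 3 or more of the 6 RGC markers, are given as a background class of the same depth, 359 barcodes. hes6 was found in 77.6% of the progenitors (28.1% of RGC-marker barcodes), neurod4 in 68.6% (6.69%), otx2b in 58.7% (3.90%), dla in 42.5% (2.79%), olig2 in 39.5% (3.34%) and notch1a in 34.4% (0.836%). Without thinning these shares were 94.0%, 88.0%, 76.7%, 63.4%, 59.7% and 71.9%. vsx1 was found in 58.4% (12.0%) and crx in 41.3% (10.0%). A contrast with RGC-marker barcodes does not make a gene particular to the progenitors. In the sums given above, neurod4 was level with dividing photoreceptor barcodes, crx was not called against the other barcodes and vsx1 was abundant in both classes. Detection is limited at this depth: hes2.2 itself was found in 74.1%.

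ascl1a was found in 21.2% of the thinned progenitors (1.39% of RGC-marker barcodes), atoh7 in 19.4% (10.9%) and neurog1 in 17.3% (1.67%). RGCs once expressed atoh7, so for this gene they are no empty class. Of the 84 progenitors with atoh7, 12 also held ascl1a and 5 held neurog1, which 92 and 75 of the 433 progenitors held. Of the 75 with neurog1, 67 held otx2b and 64 held vsx1, and of the 92 with ascl1a, 45 held olig2. These counts are a description, because cells of a library are not replicates and abundant transcripts of a cell are found together more often. In replicate 1, where 763 thinned progenitors were counted, the background was much higher: neurod4 was found in 68.3% of progenitors and 42.8% of RGC-marker barcodes, and vsx1 in 73.3% and 61.7%.

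Within the neurogenic progenitors, the mCherry-enriched and eGFP-enriched libraries were compared, which is the contrast the study was built on. No gene of 8488 passed edgeR's test without a block (0%), and with the replicate number as a block 49 did, as given below. Without the block, 19 genes were higher and 15 lower in the mCherry-enriched libraries at an unadjusted p below 0.05, and DESeq2 called 1 lower. In replicates 2 and 3, 2 of 4199 were called higher (0.0476%), the haemoglobin genes hbae1.3_1 and hbbe1.3. hbbe1.3 stood at 41.5, 517 and 202 CPM in mCherry-enriched progenitors and 18.4, 13.1 and 0.302 CPM in eGFP-enriched ones, while free RNA held 2803, 15682 and 9538 CPM and 589, 744 and 77.0 CPM of it. Of all genes, 195 (2.3%) had all 3 mCherry-enriched values above and 132 (1.56%) below all 3 eGFP-enriched values.

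The reporters and the genes that mark the regions of the retina are given by their values. mCherry transcripts stood at 9.09, 6.16 and 8.69 CPM in the mCherry-enriched progenitors and at 0.46, 0 and 1.51 CPM in the eGFP-enriched ones, without overlap, from 48, 1 and 7 UMIs and 7, 0 and 5 UMIs (log2 fold change 3.37, SE 0.71). The libraries were sorted on mCherry fluorescence, so this difference is in part what the sort selected and is a description. Over all filtered barcodes, progenitors included, mCherry stood at 9.61, 0.676 and 4.78 CPM in the mCherry-enriched and 0.666, 0 and 0.685 CPM in the eGFP-enriched libraries. The progenitors were thus lower in both replicate 1 libraries and higher in both replicate 3 libraries, on few UMIs. eGFP transcripts overlapped between the sorts, at 26.5, 6.16 and 23.6 CPM against 10.8, 13.1 and 20.2 CPM. vax2, a ventral factor, stood at 9.27, 12.3 and 18.6 CPM against 4.93, 0 and 2.41 CPM, and vax1 at 27.3, 18.5 and 33.5 CPM against 9.00, 0 and 10.9 CPM. foxg1a, a nasal factor, stood at 24.6, 18.5 and 23.6 CPM against 62.0, 144 and 32.0 CPM. In these 3 genes the sorts did not overlap, and none passed the test without a block (adjusted p = 1 each). In the progenitors of replicate 2, 1 UMI stood for 6.16 CPM in the mCherry-enriched and 13.1 CPM in the eGFP-enriched library. The replicate 2 values of vax1 and vax2, and the 18.5 CPM of foxg1a, thus rest on few UMIs. Of the 8 nasal and temporal genes tested, foxd1 was above and foxg1a and efna5a below in all 3 mCherry-enriched libraries, and the other 5 overlapped. Of the 9 dorsal and ventral genes, vax1 and vax2 were above and the other 7 overlapped.

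The test between the sorts depended on whether the replicate number was fitted as a block. With the block, 49 genes of 8488 were called, 26 higher and 23 lower in the mCherry-enriched libraries. They included vax1 (log2 fold change 1.58, adjusted p = 1.31e-05), ephb2b, an ephrin receptor (0.94, 0.000149), foxg1a (-1.23, 0.000283) and hbbe1.3 (3.14, 3.79e-34). The block leaves few residual degrees of freedom, so these p-values lean on the spread that edgeR pools over genes. Free RNA of hbbe1.3, given above, also differed between the sorts, and its part in the difference was not tested. mCherry (3.62) was among the 49 too, but the libraries were sorted on its fluorescence, so its difference is in part what the sort selected. vax2 (1.5, adjusted p = 0.152) and eGFP (0.88, 0.209) were not called, nor were dla (0.13), notch1a (0.39) and atoh7 (-0.02), with an adjusted p of 1 each. The labels give the number and no shared source for it. By the sorting legend, each round gave an eGFP-positive and an mCherry-positive or double-positive sample, but the labels do not tie numbers to rounds. Libraries with the same number had correlated deviations from their group means (r = 0.368, 0.0888 and 0.178). If they share a pool, the fit without the block ignores that pairing.

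Neurogenic genes did not pass the test between the sorts. The log2 fold change between the sorts was 0.03 (SE 0.45) for dla, 0.32 (SE 0.30) for notch1a and 0.00 (SE 0.48) for atoh7, and the medians of the 3 receptors, 6 ligands and 24 neurogenic factors tested were 0.29, 0.21 and -0.08 beside 0.01 over all genes. With SEs of this size, moderate differences were not detectable at 3 libraries a group. In simulated counts with known fold changes, the test without a block recovered 4% of 2-fold and 51% of 4-fold changes. No gene of 10141 passed a test of whether the contrast of progenitors with other barcodes differed between the sorts (edgeR interaction test, adjusted p below 0.05), with 44 at an unadjusted p below 0.05. That fit left out the split of replicate 1 from replicates 2 and 3, at which 2216 genes were called. It therefore cannot show that the contrast was alike in the 2 sorts.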

How the data were processed

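Retinal cells sorted from pooled zebrafish eyes were run on the 10x platform (3' v3.1), 3 mCherry-enriched and 3 eGFP-enriched libraries. The authors aligned reads to GRCz11 with the eGFP and mCherry sequences added, and the submitters' notes name Cell Ranger 6.1.2 and Seurat 4. The deposited matrices hold raw UMI counts of all barcodes for 25109 genes, with neither cell calls nor annotation, so cells were chosen again and counts of barcodes may differ from the study's. UMIs were counted by gene symbol, and 9 list genes were not matched in the files.

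Barcodes with at least 1000 genes and at most 10% mitochondrial UMIs were kept, doublets were not removed, and the marker rule was applied. Raw UMI counts were summed per library and class, for libraries with at least 10 barcodes in each class, and tested with edgeR 4.0.16 (R 4.3.3; TMM scaling, filterByExpr, quasi-likelihood test, library as a block between classes, none between sorts), with Benjamini-Hochberg adjustment over all genes tested and calls at 0.05. CPM are sums of UMIs over the class total, so an error of counting is largest in mCherry-enriched and eGFP-enriched replicate 2. Genes of the rules were left out of the counts. Shares were compared by exact two-sided permutation tests over libraries (SciPy 1.17.1, NumPy 2.4.6, pandas 2.3.3, Python 3.11.15), and figures drawn with matplotlib 3.10.9. The tests were tried on simulated counts with known fold changes.

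Named genes were those of the lists, the 10 largest changes in each direction against other barcodes, and the 5 largest in each other comparison, among called genes with a mean of at least 20 CPM in the higher class and the same direction in every library. The members, lists and tests were chosen with earlier results of these data known. Alternatives were DESeq2 1.42.0 and its size factors, no filter on low counts, at least 500 genes, at most 5% mitochondrial UMIs, 3 markers, thinning to 2000 UMIs, leaving out the highest 5% of UMIs or each library in turn, the other class within the interquartile range of UMIs, at least 20 barcodes per class and the replicate block. Fits on replicates 2 and 3 or replicate 1 alone were added after seeing the data.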

Additional observations from a re-analysis of the deposited data

How the results depend on the processing

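Counts of called genes depended on depth and on replicate 1. Against other barcodes (1137 called), DESeq2 gave 2082, no filter on low counts 3111, at least 3 markers 568, the rule after thinning 510, replicates 2 and 3 alone 2515, and leaving out 1 library 576 to 1596. Against ciliary margin barcodes (487) the same settings gave 1314 with DESeq2, 2464 with no filter, 879 after thinning and 3455 in replicate 3, while at least 500 genes gave 1037, leaving out the highest 5% of UMIs 1931, the interquartile range 2459, and leaving out 1 library 18 (mCherry-enriched replicate 1) to 938 (eGFP-enriched replicate 1). Against dividing photoreceptor barcodes (1409), at least 3 markers gave 312, thinning 164, the interquartile range 908, and leaving out 1 library 734 to 1537. Against glia barcodes (1791), at least 3 markers gave 272, thinning 192, and leaving out 1 library 957 to 1724. Thinning and the 3-marker rule left 4 libraries in place of 6 there. The insm1a split (80) gave 424 with no filter, 192 after thinning, 265 in replicate 3 and 2 to 104 without 1 library, and could not be fitted with at least 3 markers. Between the sorts (0), DESeq2 gave 1, no filter 39, replicates 2 and 3 gave 2, and leaving out 1 library 0 to 3.

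The replicate block gave 49 called genes between the sorts, 26 higher and 23 lower. Same-numbered libraries had correlated deviations from their group means (r = 0.368, 0.0888 and 0.178, against -0.183 to 0.0109 for other pairs), each library most with its own number, a hint from the data, and the labels give no shared source. For the share of progenitors, pairing gave p = 0.5 (exact sign-flip test, smallest 0.25), and leaving out 1 library moved the difference from -4.71 (without mCherry-enriched replicate 1) to 12.6 points.

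Differences in UMI shares kept their direction in every setting run. For DNA replication genes, the interquartile range gave 0.208 points against other barcodes and 0.0801 against dividing photoreceptor barcodes. Against glia barcodes the difference was 0.210 after thinning, 0.258 in replicates 2 and 3 and 0.181 to 0.261 without 1 library. For mitosis genes it was 1.13, 1.70 and 1.18 to 1.5 against other barcodes, 0.470, 0.957 and 0.779 to 0.926 against dividing photoreceptor barcodes, and 0.886, 1.53 and 1.18 to 1.40 against glia barcodes in the same 3 settings. The rule selected division genes against other and glia barcodes, so those differences are a description. Against dividing photoreceptor barcodes the exact p was 0.125 with 4 libraries and 0.0625 with 5, the smallest possible.

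Among others, signs of single genes turned for rx1 (-0.40) and ccnd1 (-0.012) in replicate 1 alone, for pde6gb (0.63), rem1 (0.23) and vsx1 (-0.080) in the insm1a split after thinning, and for notch1b (-0.34) and olig2 (-0.012) against glia barcodes after thinning. Against dividing photoreceptor barcodes, 14 called list and named genes changed sign after thinning and 1 with at least 3 markers. With at least 3 markers 2 changed sign against glia barcodes. In the interquartile range 1 did against ciliary margin barcodes. The causes were not tested.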
